A study of Homo sapiens with 8 samples.

Results

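The comparison described here is the main effect of the telomerase inhibitor GRN163L in HEL cells: the 4 arrays of cells that received GRN163L, alone or with the JAK2 inhibitor LY2784544, against the 4 arrays of cells that did not. All 8 arrays of the series enter it. HEL is an established human erythroleukaemia cell line that carries an activated JAK2 kinase. The control cells received DMSO only. The LY2784544 cells received 0.5 µM of that inhibitor, the GRN163L cells 20 µM of the oligonucleotide, and the combination cells both agents, at doses that the labels do not restate for that arm. RNA was taken after 48 h. Both experiments held each of the 4 treatments once, on 1 array, and this gives 4 pairs that differ by GRN163L alone if the combination doses equal the single ones: GRN163L against control and combination against LY2784544, in experiments 1 and 2. No arm with an oligonucleotide of another sequence is among the 8 arrays, so an effect of binding the telomerase RNA and an effect of an oligonucleotide as such cannot be told apart.

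Telomerase adds telomere repeats to chromosome ends with a protein catalytic subunit, TERT, and an RNA subunit, TERC, which carries the template. TERC belongs to the H/ACA class of small RNAs and is held by dyskerin (DKC1), NOP10, NHP2 and GAR1. GRN163L, also called imetelstat, is a lipid-linked oligonucleotide complementary to the template region of TERC, and it inhibits the enzyme by occupying that region. JAK2 passes cytokine receptor signals to STAT factors and to the MAPK cascade, and in HEL cells it does so without cytokine.

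Values are log2 signals per gene on each array, so a difference of 1 is a 2-fold change. A main effect is the mean of the 4 pair differences with its standard error (SE), and a gene was called when limma's moderated test, with the 4 pairs as blocks, gave a Benjamini-Hochberg adjusted p below 0.05 over the 12570 genes tested. The median signal of the tested genes moved by -0.02 and 0.05 in the control pairs and by -0.10 and -0.045 in the LY2784544 pairs. GRN163L took 20.1% of the sum of squares over the tested genes, LY2784544 34.5% and the experiment 17.7%. The joint terms took 9.17% (experiment by LY2784544), 8.07% (LY2784544 by GRN163L), 6.09% (experiment by GRN163L) and 4.28% (all 3). Every share holds noise as well. The erythroid and megakaryocytic identity genes GATA1 (10.23 to 10.7), TFRC (11.12 to 11.85) and ITGA2B (11.13 to 11.46) were bright on every array, as were the blood cell genes PTPRC, PECAM1 (10.71 to 11.34) and CD4 (8.84 to 9.54), whereas the T cell gene CD3E (3.24 to 3.72), the B cell gene MS4A1 (3.24 to 3.82), VWF (3.68 to 4.49) and EPCAM (3.44 to 4.01) were at the low end of the scale. HBG1, HBG2 and CD33 were not analysed here.

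GRN163L changed 305 of 12570 genes (2.43%): 132 rose (1.05%) and 173 fell (1.38%). The genes that fell included TERC itself, a set of histone genes on chromosome 6, the cytokine feedback gene SOCS3, the ETS factors ETV4 and ETV5, and the stem cell surface gene CD34. The genes that rose were led by MAPK4, an atypical MAP kinase. The median size was 0.663 among the genes that rose and 0.695 among those that fell, and 14 and 28 of them changed at least 2-fold. Every called gene moved one way in all 4 pairs, which the test on the same 4 differences largely fixes, as did 3578 of all tested genes (28.5%). The signals with and without GRN163L did not overlap for 67 of the 132 genes that rose and 96 of the 173 that fell, against 798 of all tested genes (6.35%), a count that rests on the same values as the calls. Among the called genes that rose, the median pair difference was 0.48 and 0.71 in the control pairs and 0.67 and 0.75 in the LY2784544 pairs, and among those that fell it was -0.55, -0.66, -0.82 and -0.73.

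The number of calls rested on single pairs and on the pairing. Without the control and GRN163L pair of experiment 2 no gene was called (smallest adjusted p 0.0548, 2666 genes at an unadjusted p below 0.05), without the LY2784544 and combination pair of experiment 2 there were 9, without that pair of experiment 1 there were 82, and without the control and GRN163L pair of experiment 1 there were 307. A fit without the pairs as blocks called 48 genes (11 higher and 37 lower). With the experiment as a block in place of the pairs, 29 (experiment and LY2784544) and 32 (experiment and 4 group means) of the 40 named called genes stayed called. OR51E1, ALDH1L2, PHEX, RELN, TLR3, CD36, SPARC and KDR lost their call in both fits, with adjusted p from 0.0529 to 0.118. No gene was called within experiment 1 (1114 at an unadjusted p below 0.05), within experiment 2 (2124), or for GRN163L against control (1028), while the combination against LY2784544 gave 201.

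TERC, the target of the oligonucleotide (chr3:169764610-169765060, GRCh38.p14), read 9.58 and 9.26 in control cells, 9.78 and 9.36 after LY2784544, 8.94 and 8.57 after GRN163L and 7.95 and 8.43 after both, in experiments 1 and 2. All 4 arrays with GRN163L lay below all 4 without it. The main effect was -1.02 (SE 0.19, limma adjusted p = 0.0407). The pair of the combination and LY2784544 in experiment 1 had the largest difference.

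The protein side of telomerase moved less. TERT was dim at 4.40 to 5.07 on the 8 arrays and differed by -0.06 (SE 0.15, adjusted p = 0.851). DKC1, the dyskerin that holds TERC, differed by 0.26 (SE 0.10, adjusted p = 0.172). Of the 12 telomerase and TERC processing genes, 2 were called, both lower: TERC and RUVBL2, an ATPase used in assembling ribonucleoprotein complexes including telomerase. RUVBL2 read 9.17 and 9.42 in control, 8.59 and 9.17 after LY2784544, 8.66 and 8.69 after GRN163L and 7.60 and 8.39 after both, a main effect of -0.75 (SE 0.11, adjusted p = 0.0262). Its GRN163L and non-GRN163L ranges overlapped, because LY2784544 cells of experiment 1 were as low as GRN163L cells. The partner ATPase RUVBL1 differed by -0.33 (adjusted p = 0.146) and WRAP53, which carries TERC to Cajal bodies, by -0.36 (adjusted p = 0.161). The list's median was -0.145, against -0.01 over all tested genes, of which 2.43% were called. None of the 9 shelterin and telomere end genes measured was called; TERF2IP differed by 0.41 (adjusted p = 0.0722) and ACD by -0.40 (adjusted p = 0.0847).

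Other small RNAs, not all of TERC's class, were measured beside it. SCARNA7, a small RNA of Cajal bodies, fell by 0.97 (SE 0.17, adjusted p = 0.0399), from 8.59 to 9.19 without GRN163L to 7.56 to 8.26 with it, and was the 1 member called of 14 SCARNA genes. Of 129 snoRNA genes, 3 fell and 2 rose: SNORD45B by -0.79, SNORD50B by -0.46 and SNORD105 by -0.865, SNORA23 by 0.92 and SNORA38B by 0.60. The spliceosomal RNA RNU11 fell by 0.58 (adjusted p = 0.0305). The medians were -0.098 for the snoRNA genes and -0.053 for the SCARNA genes, near the -0.01 of all genes. Over all tested genes 2.43% were called. These small RNA genes were grouped by their RefSeq type, or by symbol for the SCARNA genes, and the members named were picked for being called.

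**Figure D1:**
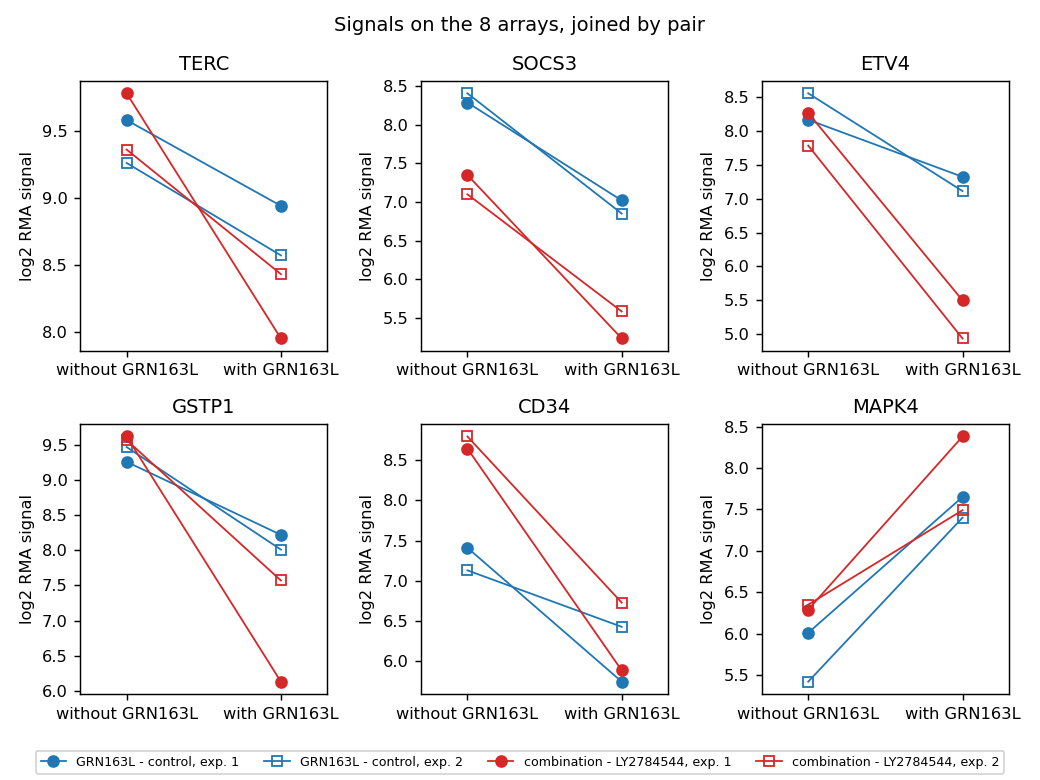
Log2 RMA signals of TERC, SOCS3, ETV4, GSTP1, CD34 and MAPK4 on the 8 arrays, each line joining the 2 arrays of a pair without and with GRN163L. All 4 lines fall in TERC, SOCS3, ETV4, GSTP1 and CD34 and rise in MAPK4, and the vertical axes differ between panels and do not start at 0.

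The 12 largest falls took in signalling, surface and redox genes. GSTP1, a glutathione transferase, read 9.26 and 9.47 in control, 9.62 and 9.57 after LY2784544, 8.22 and 8.01 after GRN163L and 6.13 and 7.57 after both. The main effect was -1.9975 (SE 0.33, adjusted p = 0.0319), and the 4 arrays with GRN163L lay below the others. UNC5B, a netrin receptor, was at 7.91 and 8.80 in control, 7.64 and 8.40 after LY2784544, 6.85 and 6.59 after GRN163L and 6.31 and 5.58 after both, and it fell by 1.855 (adjusted p = 0.0242). CD34, the surface marker of haematopoietic stem and progenitor cells, was at 7.41 and 7.13 in control, 8.64 and 8.79 after LY2784544, 5.75 and 6.43 after GRN163L and 5.89 and 6.73 after both. It fell by 1.79 (SE 0.27, adjusted p = 0.0283), while the LY2784544 main effect on it was 0.83.

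ANXA1, the phospholipid-binding annexin A1, had a main effect of -1.73 (adjusted p = 0.0486), with pair differences from -0.48 in the control pair of experiment 2 to -3.24 in the LY2784544 pair of experiment 1. WNT11, a secreted Wnt ligand, had one of -1.625 (adjusted p = 0.0283), MRC2, a collagen-binding receptor, -1.565 (adjusted p = 0.0153), and RELN, the extracellular protein reelin, -1.41 (adjusted p = 0.0375). RELN was the exception among the 12 in that its groups overlapped: the combination array of experiment 2 read 8.73, above the control arrays at 8.65 and 8.51. SOCS3, ETV4, ETV5, H3C11 and H2BC13 complete the 12 and are described with their groups.

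The 12 largest rises included 3 genes that do not code for protein. MAPK4, an atypical MAP kinase, read 6.01 and 5.42 in control, 6.29 and 6.35 after LY2784544, 7.65 and 7.40 after GRN163L and 8.38 and 7.49 after both. The main effect was 1.71 (SE 0.16, adjusted p = 0.0108), and every array with GRN163L lay above every array without. The long noncoding RNA gene LINC03030 rose by 1.39 (SE 0.13, adjusted p = 0.0129), from 4.85 to 5.29 without GRN163L to 6.26 to 6.68 with it. The transcribed pseudogene ANKRD20A11P rose by 1.11 (SE 0.09, adjusted p = 0.0106) and RPS20P27, a ribosomal protein pseudogene, by 1.05 (adjusted p = 0.0151). The ribosomal protein genes and their pseudogenes are near-identical copies, so a probe set's signal for RPS20P27 may hold RNA of the parent gene.

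The coding genes among the largest rises were B3GALNT1, a glycosyltransferase of globoside synthesis (1.27, adjusted p = 0.0184), SEC11C, a subunit of the signal peptidase (1.27, adjusted p = 0.0407), ALDH1L2, a mitochondrial enzyme of folate metabolism (1.205, adjusted p = 0.0469), HEBP1, a haem-binding protein (1.19, adjusted p = 0.0232), PHEX, a membrane endopeptidase (1.12, adjusted p = 0.042), TDP2, which releases topoisomerase trapped on DNA ends (1.12, adjusted p = 0.0305), and the syndecan SDC2 (1.105, adjusted p = 0.0283). OR51E1, an olfactory receptor, rose by 1.27 (adjusted p = 0.0221). It stood at 6.41 and 5.70 in control and at 7.89 and 9.37 with the combination, but LY2784544 alone in experiment 2, at 7.85, was as high as arrays with GRN163L. The groups did not overlap in 8 of these 12 genes and in 11 of the 12 largest falls, against 6.35% of all tested genes. Both sets were picked for large effects on these same arrays, which largely fixes these counts.

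**Figure D2:**
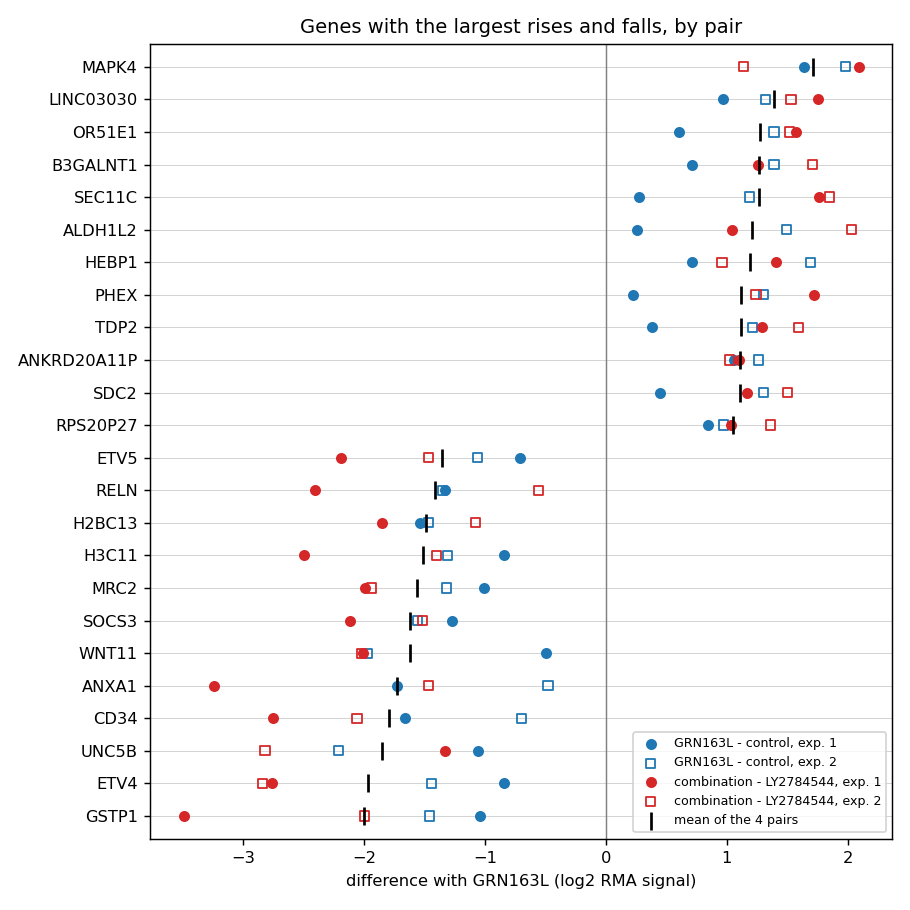
Pair differences (log2, with minus without GRN163L) of the 12 largest rises and 12 largest falls among the called genes, with filled circles for experiment 1, open squares for experiment 2, blue without and red with LY2784544, and a black bar at the mean of the 4 pairs. Each gene's 4 points lie on one side of 0, from MAPK4 at 1.71 to GSTP1 at -1.9975.

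The replication-dependent histone genes lie in clusters, are expressed in S phase and make the bulk of the core and linker histones. Their messages end in a stem-loop in place of a poly(A) tail. Of the 42 genes in the list used here 41 were on the array, and H2BC6 and H3C6 were too dim to be tested. All 39 tested members of the list lie on chromosome 6 and had a main effect below 0, from -1.51 to -0.09. Of these, 23 were called, all lower, against 1.38% of all tested genes. Histone genes outside the list, among them H2BC12, H2AC14 and H2AC25, were also called and are not counted here. The counts and the chromosome therefore describe the list, not the whole family. The median was -0.595, against -0.01 over all tested genes, and the pair medians were -0.47 and -0.72 in the control pairs and -0.79 and -0.53 in the LY2784544 pairs. In 38 of the 39 all 4 pairs were lower. H1-4 was the exception, 0.06 higher in the control pair of experiment 1. The groups did not overlap in 22 of the 39, against 6.35% of all tested genes, a count that rests on the same values as the calls.

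All 5 histone families took part. The genes of the list that fell were 2 of 4 linker H1 genes, 4 of 8 H2A, 4 of 10 H2B, 6 of 8 H3 and 7 of 9 H4 genes. Family medians ran from -0.731 for H3 to -0.552 for H1. H2BC13 read 7.97 and 8.0 in control, 7.21 and 7.82 after LY2784544, 6.43 and 6.53 after GRN163L and 5.36 and 6.74 after both, a main effect of -1.485 (SE 0.13, adjusted p = 0.0106). H3C11 fell by 1.51 (adjusted p = 0.0283), H2AC4 by 1.135, H4C2 by 0.85 and H3C3 by 0.825 (adjusted p = 0.017 for each of the last 3). Histone copies share long stretches of sequence, so signals may be partly shared between family members, and the 39 are not 39 separate measurements.

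The replacement variants, a group of 9 chosen after the values had been seen, are also expressed outside S phase, mostly as polyadenylated messages. Their median was 0.078, with 5 above and 4 below 0. H2AZ2 rose by 0.55 (SE 0.10, adjusted p = 0.0407), from 8.67 to 9.32 without GRN163L to 9.40 to 9.91 with it, and the linker variant H1-10 fell by 0.58 (adjusted p = 0.0319). Of 29 DNA replication genes 24 were below 0 and none was called; the median was -0.222, with RFC4 at -0.515 (adjusted p = 0.057) and MCM7 at -0.655 (adjusted p = 0.0639). The 19 genes of G2 and mitosis had no call and a median of -0.058, and neither did the 9 genes of histone mRNA processing, at -0.078, of which LSM10 differed by -0.43 (adjusted p = 0.156). In bulk RNA, fewer cells that express a gene and less RNA per cell cannot be told apart, and the part of the cell cycle in the histone values was not tested. Without the control and GRN163L pair of experiment 2 none of the 39 histone genes was called and without the LY2784544 and combination pair of experiment 2 there was 1, though all 39 stayed below 0 in both. With the experiment as a block 15 or 14 were called, and without a replicate block 4.

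**Figure D3:**
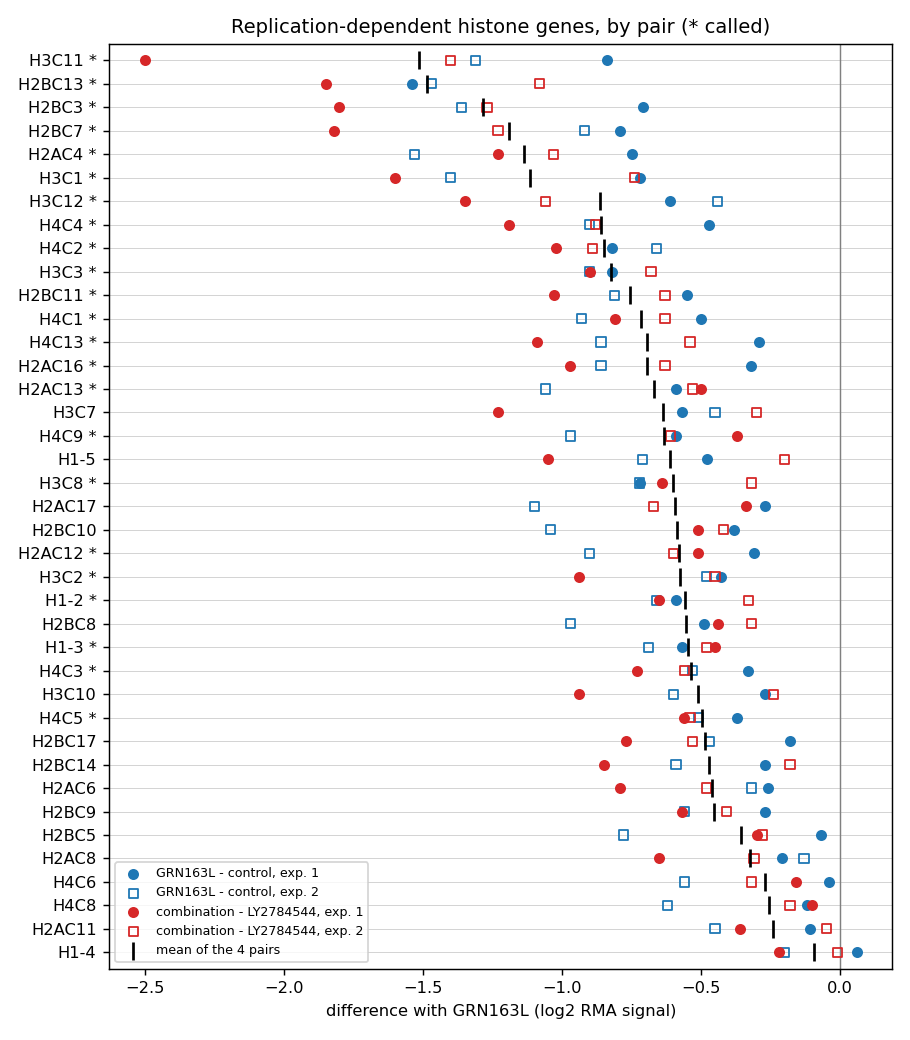
Pair differences (log2, with minus without GRN163L) of the 39 tested replication-dependent histone genes of the list. Filled circles are experiment 1 and open squares experiment 2, with blue for pairs without and red for pairs with LY2784544. A black bar marks the mean of the 4 pairs and an asterisk the called genes. All means lie below 0, from -1.51 for H3C11 to -0.09 for H1-4, whose control pair of experiment 1 at 0.06 is the one point above 0.

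The promoters of these histone genes share short sequence elements. In windows of 300 bases around the start (250 before it) from RefSeq, build GRCh38.p14, searched on both strands, CCAAT was found in 36 of 40 promoters of the histone list (90.0%) and in 34.6% of all 35116 promoters. The octamer ATTTGCAT, known as an element of H2B promoters and added after the values had been seen, was found in 16 of the 40 (40.0%), in 9 of 12 promoters of H2B genes (75.0%), and in 1.77% of all promoters. Among promoters of the called histone genes, 15 of 18 held CCAAT (83.3%) and 5 held the octamer (27.8%). A match is a run of letters and not a shown binding site. The 120 bases before the start are given for H2BC13, H3C3 and H2AC4, the histone genes with the smallest p that have a promoter entry, and for H2BC3 (-1.285, adjusted p = 0.0204), a called H2B gene with the octamer. They are written 5′ to 3′ on the gene's strand, and capitals mark CCAAT or the octamer on either strand. No capital stretch belongs to both motifs.
H2BC13, chr6:27807930-27808049, minus strand: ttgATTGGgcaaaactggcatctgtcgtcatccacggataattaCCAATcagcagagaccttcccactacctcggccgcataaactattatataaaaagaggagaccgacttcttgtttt
H2BC3, chr6:26043714-26043833, minus strand: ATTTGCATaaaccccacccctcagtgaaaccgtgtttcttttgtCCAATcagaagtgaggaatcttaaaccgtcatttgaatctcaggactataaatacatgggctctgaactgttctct
H2AC4, chr6:26033619-26033738, minus strand: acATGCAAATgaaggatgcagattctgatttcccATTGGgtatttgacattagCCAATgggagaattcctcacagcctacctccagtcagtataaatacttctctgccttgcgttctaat
H3C3, chr6:26045264-26045383, plus strand: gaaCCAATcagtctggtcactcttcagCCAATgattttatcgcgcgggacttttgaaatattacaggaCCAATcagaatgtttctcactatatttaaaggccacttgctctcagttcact

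The second group that fell was that of MAPK feedback and immediate early genes, which respond to receptor and kinase signals. Of 21 tested, 20 were below 0 and 7 were called, all lower: ETV4, ETV5, EGR1, FOS, JUNB, IER2 and IER3. The list's median was -0.71, against -0.01 over all tested genes, of which 1.38% were called lower. ETV4, an ETS transcription factor induced through the MAPK pathway, read 8.16 and 8.55 in control, 8.26 and 7.78 after LY2784544, 7.32 and 7.11 after GRN163L and 5.50 and 4.94 after both. Its main effect was -1.97 (SE 0.31, adjusted p = 0.0302), and no array with GRN163L reached the level of one without. ETV5 fell by 1.36 (adjusted p = 0.0294), and its range with GRN163L, 6.98 to 8.48, ended below its range without, 8.74 to 9.54.

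The immediate early factors had smaller main effects. EGR1 fell by 0.72 (SE 0.10, adjusted p = 0.0242) and IER2 by 1.08 (adjusted p = 0.0225). The AP-1 genes FOS and JUNB fell by 0.835 (adjusted p = 0.0382) and 0.84 (adjusted p = 0.0305). FOS was uneven between the experiments: control read 7.72 in experiment 1 and 9.09 in experiment 2, while GRN163L read 6.32 and 8.38, and every array of experiment 1 lay below every array of experiment 2. DUSP6, a phosphatase that limits ERK, and SPRY2 did not pass the threshold, at -0.84 (adjusted p = 0.0527) and -0.46 (adjusted p = 0.0647), and were picked after their values had been seen. When either pair of experiment 2 was left out, no member of this list was called.

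Among 17 JAK-STAT target genes, 15 were below 0, the median was -0.15, and 2 fell, against 1.38% of all tested genes. Both are SOCS genes, which restrain cytokine receptors and JAK kinases. SOCS3 read 8.29 and 8.41 in control, 7.35 and 7.10 after LY2784544, 7.02 and 6.85 after GRN163L and 5.23 and 5.58 after both. Each agent lowered it, and the arrays with both were lowest: the GRN163L main effect was -1.62 (SE 0.14, adjusted p = 0.0106), the LY2784544 main effect -1.33, and their difference of -0.29 had an adjusted p of 0.394. SOCS1 fell by 0.62 (adjusted p = 0.0409). ID1 differed by -0.575 (adjusted p = 0.0527) and PIM1, a kinase induced by STAT5, by -0.45 (adjusted p = 0.0754). JAK2 itself differed by 0.34 (SE 0.13, adjusted p = 0.183).

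MIR21, the gene of an abundant microRNA that is a STAT3 target, was the 1 gene called of 47 microRNA genes. That share is near the 2.43% called over all tested genes. It read 7.86 and 7.06 in control, 6.37 and 5.27 after LY2784544, 6.50 and 6.26 after GRN163L and 5.89 and 4.58 after both, a main effect of -0.83 (SE 0.14, adjusted p = 0.0375). LY2784544 alone in experiment 2 was lower than either GRN163L array, so the groups overlapped, and the LY2784544 main effect was -1.39. The array was labelled from total RNA and its probe set reads the gene's transcripts, not the mature form, which is given for identity from RefSeq (chr17:59841273-59841294, plus strand, GRCh38.p14) with its seed, bases 2 to 8, in capitals.
hsa-miR-21-5p: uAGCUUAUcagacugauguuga

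Several other groups held 1 or 2 called genes, against 2.43% called over all tested genes. In lists this short, 1 call says little about the list. Among 11 NRF2 antioxidant genes GSTP1 and HMOX1, the haem oxygenase, fell; HMOX1 fell by 0.58 (adjusted p = 0.0407), while GCLC, of glutathione synthesis, differed by 0.62 (adjusted p = 0.0568). Among 8 metallothionein and zinc transport genes 7 were below 0, the median was -0.395, and MT2A, a zinc-binding protein, fell by 0.965 (adjusted p = 0.0382). MT2A read 11.91 and 11.81 in control, 10.83 and 11.20 after LY2784544, 10.63 and 10.43 after GRN163L and 9.95 and 10.88 after both. The metallothionein pair medians were -0.955 and -0.675 in the control pairs and -0.24 and -0.01 in the LY2784544 pairs. Among 24 hypoxia and glycolysis genes 18 were below 0 and ENO2, a neuronal-type enolase, fell by 0.715 (adjusted p = 0.0391). CD36, a fatty acid transporter, fell by 0.79 (adjusted p = 0.0391), 1 of 11 PPAR target genes.

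Genes of antiviral sensing, whose products detect foreign nucleic acids, and interferon-stimulated genes held 1 call each. The share called over all tested genes was 2.43%, so these calls describe single genes. TLR3, a receptor for double-stranded RNA, rose by 0.765 (SE 0.12, adjusted p = 0.0286), from 5.86 to 6.38 without GRN163L to 6.72 to 7.24 with it, and was the 1 called of 13 nucleic acid sensing genes. AIM2, a sensor of cytosolic DNA, differed by 0.54 (adjusted p = 0.0674). Of 21 interferon-stimulated genes 12 were above and 9 below 0, the median was 0.058, and IFI6 fell by 0.55 (adjusted p = 0.0455). Neither the 18 NF-kB and inflammatory genes, with a median of -0.189, nor the 16 cholesterol synthesis genes held a call. The latter were above 0 in 15 of 16, with a median of 0.274, but the pair medians were 0.35 and 0.42 in experiment 1 and -0.045 and 0.085 in experiment 2; CYP51A1 differed by 0.58 (adjusted p = 0.0639), SC5D by 0.495 (adjusted p = 0.0674), STARD4 by 0.40 (adjusted p = 0.0686) and IDI1 by 0.645 (adjusted p = 0.0693).

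The lists of blood and other lineages held 2 called genes, against 2.43% called over all tested genes. SPARC, a matrix protein of platelets, fell by 0.865 (adjusted p = 0.0382) among 18 megakaryocyte and platelet genes, and KDR, a VEGF receptor, by 0.53 (adjusted p = 0.0452) among 8 stromal and endothelial genes. None of the 12 erythroid genes was called: HBZ, the embryonic zeta globin, differed by -1.675 with an SE of 0.41 (adjusted p = 0.0677), and HBE1 by -0.175 (adjusted p = 0.33). Of the 29 lists, 12 held a called gene and 17 none. With 2.43% of all tested genes called, a list can hold 1 call without standing apart from the rest. The medians of the 17 ran from -0.77 for the mast cell and basophil genes to 0.274 for cholesterol synthesis. Those with no call took in p53 targets (14 genes, median -0.014), the unfolded protein response (15, -0.015), ribosome biogenesis (16, -0.059), lysosome (15, -0.122), apoptosis regulators (14, -0.118), monocyte and neutrophil genes (10, 0.079) and lymphocyte genes (9, -0.112). CDKN1A, the cell cycle inhibitor induced by p53, differed by -0.57 (adjusted p = 0.0817).

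**Figure D4:**
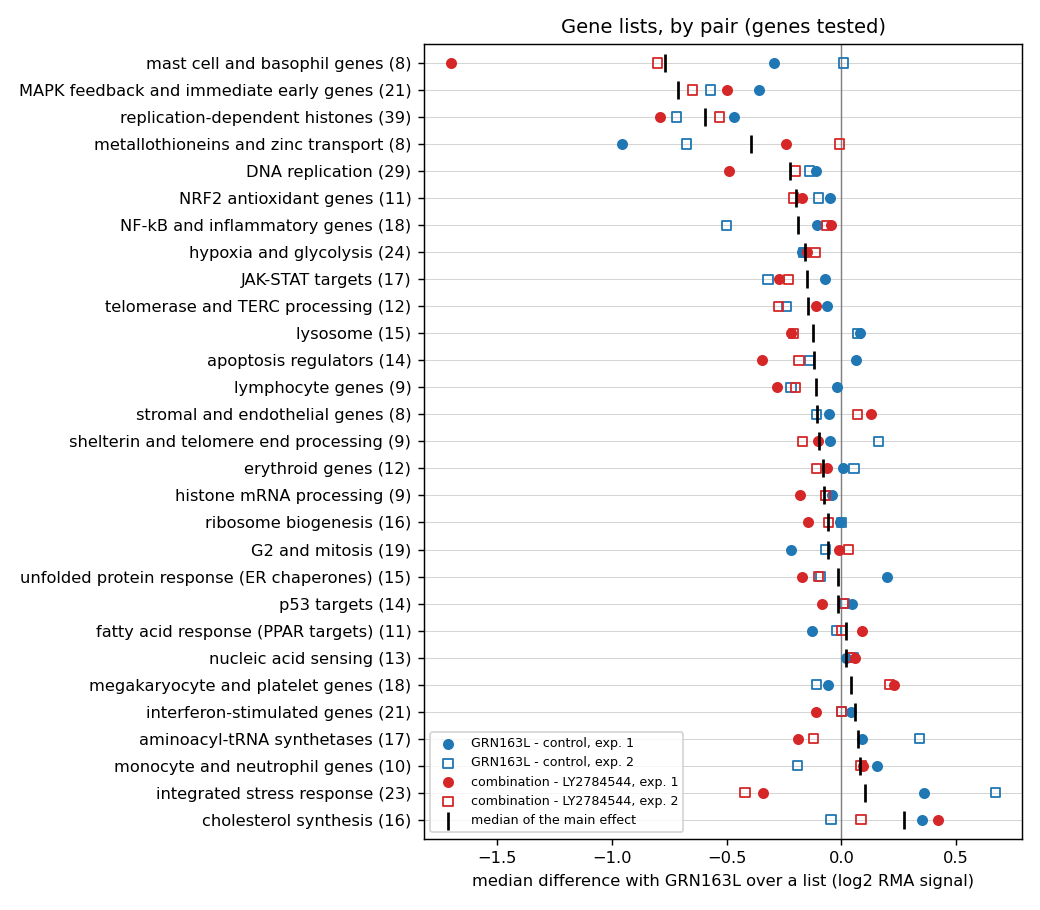
Median pair difference (log2, with minus without GRN163L) of each gene list in the 4 pairs, with the list's median main effect. Histones (-0.595), MAPK feedback genes (-0.71) and mast cell genes (-0.77) have the lowest medians, and the integrated stress response has pairs without LY2784544 above 0 and pairs with it below.

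The kinds of gene differed between the directions. Of the 132 genes that rose 25 were not protein coding (18.9%), against 690 of all tested genes (5.49%), and of the 173 that fell 7 were (4.05%). Long noncoding RNA genes made 9 of the rises and none of the falls (224 tested), and pseudogenes 13 and none (238 tested). Besides LINC03030, ANKRD20A11P and RPS20P27 they included SIMC1P1 (1.04), GVINP1 (0.9975) and LINC00965 (0.94), these 3 picked after their values had been seen. Of the 25 olfactory receptor genes bright enough to be tested 4 rose (OR51E1, OR2L8, OR2AT4 and OR2G3), against 1.05% of all tested genes. The 356 olfactory receptor genes on the array, a group most cells do not express, had median pair differences of 0.07, 0.02, 0.03 and -0.04. Mean signals under 6 made up 14.4% of the genes that rose, 9.83% of those that fell and 28.0% of all tested.

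A main effect averages over the presence of LY2784544, so whether the effect of GRN163L was the same without and with it was tested as an interaction, the combination's difference from LY2784544 minus that of GRN163L from control. No gene passed (0 of 12570, 0%, limma; smallest adjusted p 0.0598; 742 at an unadjusted p below 0.05). A fit without the experiment as a block also called none, without a filter on dim genes 4 were called, and without the LY2784544 array of experiment 2 there were 11. The smallest p in each direction belonged to HLA-DRA, UCA1 and ETV1 below 0 and to VGLL3, NCAM1 and PROK2 above it. HLA-DRA, an MHC class II chain, read 7.50 and 7.35 in control, 8.72 and 8.52 after LY2784544, 7.45 and 7.97 after GRN163L and 5.77 and 6.23 after both, an interaction of -2.905 (adjusted p = 0.0598). Its pair differences were -0.05 and 0.62 without LY2784544 and -2.95 and -2.29 with it. The long noncoding RNA UCA1 was at 6.57 and 6.77 with LY2784544 and from 4.13 to 4.70 on the other 6 arrays (-1.90, adjusted p = 0.0598). ETV1, the third of the PEA3 group of ETS factors with ETV4 and ETV5, had an interaction of -2.04 and VGLL3, a transcriptional cofactor, one of 1.405 (adjusted p = 0.104 for both).

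The integrated stress response genes, which ATF4 induces when amino acids run short, had pair values of opposite sign without and with LY2784544. Their median main effect was 0.102, with none of 23 called. The pair medians were 0.36 and 0.67 without LY2784544 and -0.34 and -0.42 with it, and 14 of 23 (60.9%) were higher in both pairs without LY2784544 and lower in both with it, against 708 of all tested genes (5.63%). The interaction was below 0 in 22 of 23, and 14 had an unadjusted interaction p below 0.05 (60.9%, against 5.90% of all), but none passed after adjustment. SLC7A11, the cystine transporter, read 8.85 and 8.83 in control, 10.29 and 9.95 after LY2784544, 9.66 and 10.19 after GRN163L and 10.13 and 10.29 after both, so the 3 treated groups stood together above control. ASNS, asparagine synthetase, picked after its values had been seen, was at 7.54 and 6.69 in control, 9.14 and 8.45 after LY2784544, 8.11 and 8.59 after GRN163L and 8.28 and 7.87 after both (interaction -1.955, adjusted p = 0.357). The aminoacyl-tRNA synthetases had pair medians of 0.09, 0.34, -0.19 and -0.12, with 10 of 17 (58.8%) opposite in the same way and 16 of 17 interactions below 0.

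The mast cell and basophil genes, which HEL cells express, were below 0 in all 8 tested, with a median main effect of -0.77. None was called by the main effect test, whose error includes any unlike effect of GRN163L without and with LY2784544. The list's pair medians were -0.295 and 0.01 without LY2784544 and -1.70 and -0.80 with it. The interaction was below 0 in all 8. Of these, 4 had an unadjusted interaction p below 0.05, against 5.9% of all tested genes, but none passed after adjustment. KIT, the stem cell factor receptor, read 10.29 and 10.28 in control, 11.12 and 10.58 after LY2784544, 9.88 and 10.47 after GRN163L and 7.42 and 8.69 after both, an interaction of -2.685 (adjusted p = 0.324). PRG2, a granule protein, was at 9.41 and 9.63 with GRN163L alone and at 6.81 and 7.12 with the combination (-2.39, adjusted p = 0.104). The combination arrays were the low ones in KIT and PRG2. KIT was picked after its values had been seen. HDC, CPA3 and HPGDS, which the rule named with PRG2, had interactions of -0.635, -1.78 and -1.285. CPA3 and HPGDS were 0.36 and 0.38 higher with GRN163L than in control in experiment 2.

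**Figure D5:**
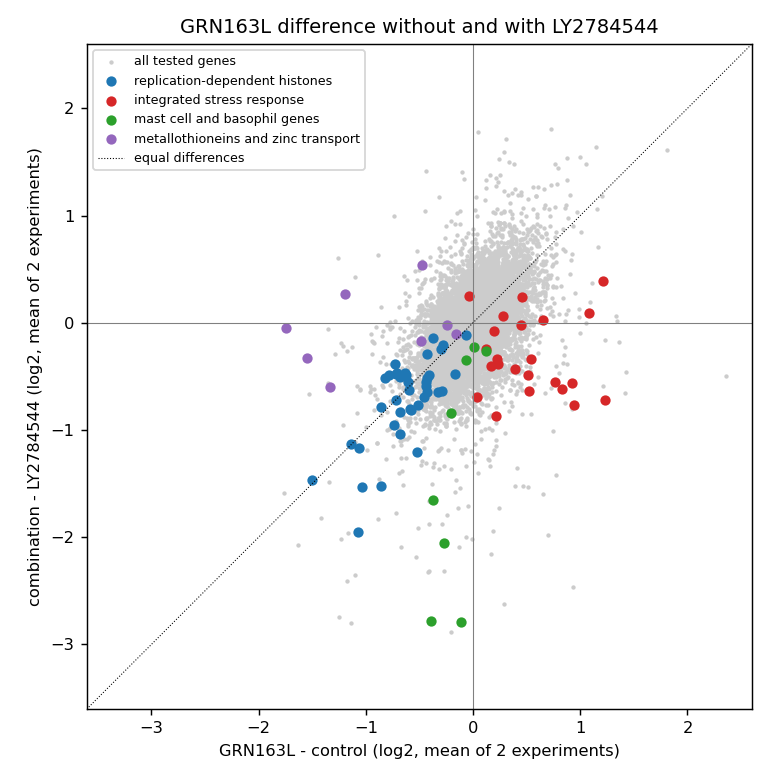
GRN163L effect without LY2784544 (GRN163L minus control, horizontal, log2) against that with it (combination minus LY2784544, vertical, log2), each a mean over 2 experiments, for the tested genes (grey), with the histone, integrated stress response, mast cell and metallothionein lists in colour and a dotted line where both are equal. Histone genes lie below 0 on both axes, with list medians of -0.605 and -0.625, and integrated stress response genes lie mostly above 0 on the horizontal and below 0 on the vertical axis, with medians of 0.455 and -0.385.

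Lastly, the GRN163L main effect was set against that of LY2784544. In this design their difference equals GRN163L against LY2784544, and 441 of 12570 genes (3.51%) passed, 330 with the higher value for GRN163L. That count rests on single arrays: it fell strongly when any GRN163L or LY2784544 array was left out. The control and combination arrays enter this difference only through its error. Leaving out either array of one of these groups gave the same fit, so it is no separate check. The genes named here were picked for their GRN163L effect on the same arrays, so their values are a description. SDC2 had main effects of 1.105 for GRN163L and -1.02 for LY2784544 (difference 2.125), MAPK4 of 1.71 and 0.51 (difference 1.205) and CD34 of -1.79 and 0.83 (difference -2.625). ANKRD20A11P had 1.11 and 0.905, a difference of 0.205 with an SE of 0.15.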

How the data were processed

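Total RNA of HEL cells (150 ng per sample) was hybridised to 8 Affymetrix arrays, per the labels' protocols. The authors deposited log2 signals, 1 per probe set and array, made with RMA in Affymetrix Expression Console per the submitters' processing notes. RMA subtracts background, quantile-normalizes and summarises probes, so a change of most transcripts one way would be reduced. Neither the build nor the program's version nor the number of normalization runs was given in the labels, and a log base of 2 was assumed because RMA writes it and the values fit its range. The number of arrays limits the precision.

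Of 33297 probe sets 19181 named exactly 1 gene in GEO's platform annotation, 2055 several and 12061 none. They covered 17958 genes, 895 of them with more than 1 probe set, where the brightest stood for the gene. Gene numbers of 19143 probe sets were found in RefSeq. Genes under the 30th percentile of mean signal (4.37) were left out, which left 12570.

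limma 3.58.1 in R 4.3.3 fitted GRN163L with the 4 pairs (experiment by LY2784544 status) as blocks, with 3 residual degrees of freedom and 5.25 added by empirical Bayes moderation, two-sided. The interaction and the difference from LY2784544 came from 4 group means with the experiment as a block. Arrays with one replicate number share an experiment, as the labels state. Deviations from group means correlated by 0.103 to 0.674 between arrays of one experiment. Each main effect p reflects how much the 4 pair differences varied. That includes any unlike effect of GRN163L without and with LY2784544, so a large main effect p need not mean variable cultures. The p values of the interaction and of the difference from LY2784544 reflect only how much these few cultures varied. On simulated data with independent noise, 100 genes were changed by 1 log2 unit and 100 by 2, and the fit found all of them. It also called 19 unchanged genes, a share of false calls above the nominal 0.05. Changes below 1 log2 unit, the size of most calls here, were not simulated.

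The comparison, the gene lists and the rule for named genes were chosen with earlier results of these data known. The rule took the 12 largest rises and 12 largest falls among called genes of one sign in 4 pairs, at most 4 members of a list, by p, TERC, TERT, DKC1 and JAK2, and the 3 smallest interaction p in each direction. Alternatives were other filters, moderation, normalization, probe set rules, blocks and thresholds, and leaving out pairs or arrays.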

Additional observations from a re-analysis of the deposited data

Results flagged for a closer look

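Among 69 groups of 4 pair differences, 3 had a value far from the other 3, and chance gives about 1 in 20 such groups. WNT11 had pair differences of -0.50, -1.97, -2.01 and -2.02 (gap over range 0.967), the value nearest 0 being the control pair of experiment 1. TLR3 had 0.39, 0.86, 0.95 and 0.86 (0.839), again with the control pair of experiment 1 apart. The NF-kB list had pair medians of -0.105, -0.50, -0.045 and -0.065 (0.868), with the control pair of experiment 2 apart.

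Several lists had medians of one sign in both pairs without LY2784544 and of the other in both pairs with it, a difference that was not tested. The change in the median, with minus without LY2784544, was -0.895 for the integrated stress response, -0.37 for the aminoacyl-tRNA synthetases, -0.29 for lysosome genes, 0.305 for megakaryocyte and platelet genes, -0.118 for erythroid genes and 0.182 for stromal and endothelial genes. NCAM1, an adhesion molecule, read 6.20 and 6.17 in control, 4.80 and 4.62 after LY2784544, 5.11 and 5.06 after GRN163L and 4.94 and 5.33 after both. Its pairs had opposite signs without and with LY2784544, and the tested interaction of 1.525 missed the threshold (adjusted p = 0.198). PROK2, a secreted prokineticin, had one of 1.15 (adjusted p = 0.244).

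Outside the genes tested, 2 of 6965 probe sets that name several genes or none were called for GRN163L, both higher (0.0287%).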

How the results depend on the processing

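The 305 calls became 490 with a filter at the 50th percentile, 686 with a mean-variance trend, 1971 with array weights, 48 without the replicate block (33 shared), 189 with the experiment as a replicate block added to LY2784544 (188 shared), 42 with a 2-fold minimum and 1139 at an adjusted p below 0.10. Leaving out 1 pair gave 0 to 307 calls. The 2 experiments alone and GRN163L against control gave 0, and the combination against LY2784544 gave 201. The share of rises moved with the scaling: 206 rose and 190 fell after median normalization, which moves the median of all genes by 0.0287, and 185 rose and 192 fell after quantile normalization. The interaction gave 0 calls, 4 without a filter, and 0 to 11 when 1 array was left out. The difference from LY2784544 gave 441 calls, 132 without the replicate block, 289 with the filter at the 50th percentile, 221 higher and 171 lower after median normalization, and 2 to 839 when 1 array was left out. The cause of these moves was not tested. The balance turned to more rises than falls after median normalization and without the control and GRN163L pair of experiment 1 (163 and 144). Of the 40 named called genes, 0 to 30 stayed called when a pair was left out, 17 without the replicate block, 29 and 32 with the experiment as a block, and 40 after median or quantile normalization. Dim probe sets limit TERT and other genes near the filter.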
